A study of Mus musculus with 19 samples.

Results

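The 10 genes described here are the cyclins Ccna2, Ccnb1, Ccnb2, Ccnd1, Ccnd2, Ccnd3, Ccne1 and Ccne2 and the cyclin-dependent kinases Cdk1 and Cdk2, taken by symbol from the 53379 genes of the deposited count table. They were measured by polyA RNA-seq in 19 single B6D2F1 mouse embryos. Eggs were fertilised in vitro, and the embryos grew in KSOM, a culture medium for early embryos, at 37 °C and 5% CO2 until 96 hours post insemination. Alyref+/- parents gave 8 of the embryos: 2 morulae labelled Alyref KO, and 3 morulae and 3 blastocysts that are non-KO. Gabpb1+/- parents gave another 8: 3 morulae labelled Gabpb1 KO, and 2 morulae and 3 blastocysts that are non-KO. The last 3 embryos were blastocysts of WT parents. Non-KO embryos are labelled WT or hetero, so each such group may mix both genotypes, and the KO embryos were recognised by the submitters in the same libraries by a lack of reads over the deleted region. Alyref is an mRNA export adaptor and Gabpb1 the beta subunit of GABP, a transcription factor, and the study asked how transcriptomes of KO embryos differ from those of the other embryos. No blastocyst was labelled KO. All embryos were collected at the same hour, so the stage of an embryo and its pace of development cannot be told apart, and neither can a cross and any batch that goes with it. Each library is 1 embryo, and p-values measure the spread between embryos.

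Cyclin-dependent kinases drive the cell cycle when bound to a cyclin. D-type cyclins bind Cdk4 and Cdk6 and link growth signals to the phosphorylation of Rb, E-type cyclins bind Cdk2 for entry into S phase, cyclin A2 serves Cdk2 and then Cdk1, and B-type cyclins bind Cdk1 for mitosis. Cells of the embryo divide from the morula on to the blastocyst, which is the stage at which an outer trophectoderm surrounds the inner cell mass.

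Promoters are shown for Ccne1, Ccnb1, Ccnb2 and Cdk1, because Ccne1 and Ccnb2 are among the genes called between stages and Ccnb1 is compared with Ccnb2 and with Cdk1 throughout. RefSeq promoters on GRCm38.p6 were matched for 6 of the 10 genes (Ccnb1, Ccnb2, Ccnd3, Ccne1, Cdk1 and Cdk2), as 7 windows of 300 bases with 250 before and 50 after the start site. The 250 bases before the start site are printed 5′ to 3′ on the strand of the gene, with matches to the searched motifs in capitals. The printed windows are chr7:38107491-38107740 for Ccne1, chr13:100786487-100786736 for Ccnb1, chr9:70421555-70421804 for Ccnb2 and chr10:69352913-69353162 for Cdk1, all on the minus strand.
Ccne1: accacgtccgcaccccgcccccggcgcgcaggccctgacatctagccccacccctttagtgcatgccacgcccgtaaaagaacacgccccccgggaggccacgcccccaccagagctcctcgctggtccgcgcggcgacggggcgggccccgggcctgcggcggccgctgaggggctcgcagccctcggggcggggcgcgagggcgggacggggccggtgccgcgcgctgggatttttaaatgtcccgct
Ccnb1: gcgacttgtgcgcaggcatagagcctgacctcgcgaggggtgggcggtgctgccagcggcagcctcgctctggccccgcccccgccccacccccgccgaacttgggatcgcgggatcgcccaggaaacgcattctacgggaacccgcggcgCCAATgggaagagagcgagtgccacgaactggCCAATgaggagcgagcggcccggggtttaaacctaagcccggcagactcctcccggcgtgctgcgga
Ccnb2: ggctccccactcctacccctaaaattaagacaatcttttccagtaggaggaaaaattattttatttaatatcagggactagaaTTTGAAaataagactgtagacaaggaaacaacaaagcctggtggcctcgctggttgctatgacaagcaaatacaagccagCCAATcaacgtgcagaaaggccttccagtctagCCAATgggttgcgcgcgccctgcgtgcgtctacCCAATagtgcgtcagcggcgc
Cdk1: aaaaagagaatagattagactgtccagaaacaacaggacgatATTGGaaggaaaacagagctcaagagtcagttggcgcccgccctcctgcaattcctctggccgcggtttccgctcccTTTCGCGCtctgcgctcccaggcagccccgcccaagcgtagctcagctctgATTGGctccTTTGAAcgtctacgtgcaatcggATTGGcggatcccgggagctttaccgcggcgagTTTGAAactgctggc
Motifs were searched on both strands. The CCAAT box (CCAAT) was present in 5 of the 7 windows, against 37.4% of 32851 promoters. The CHR element of G2 and M phase genes (TTTGAA or TTCGAA) was present in the windows of Ccnb2 and Cdk1, against 19.2% of promoters. The E2F site (TTTCCCGC, TTTGGCGC, TTTCGCGC or TTTGCCGC) was present in those of Cdk1 and Cdk2, against 2.27%, and the GABP site (CCGGAAG) in 1 window of Ccnd3, against 8.86%. In the Ccnb2 window the CCAAT boxes start 87, 54 and 21 bases before the start site, in that of Ccnb1 99 and 67 bases before it, and in that of Cdk1, where they lie on the other strand, 208, 80 and 48 bases before it. CHR elements start 167 bases before the start site of Ccnb2 and at base 5 after it, the latter beyond the printed bases. In the Cdk1 window they start 71 and 15 bases before the start site. The Ccne1 window has no match to any of the 4 motifs and is 76% G and C over the printed bases, against 47.6% for Ccnb2. A match is a run of letters and no measured binding.

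Total gene counts per embryo ranged from 7486125 to 31536282 with a median of 13633603, and ERCC spike-in RNA took 0.501 to 1.95% of the counts. Alyref was at 53.1 CPM in the Alyref KO morulae against 221 CPM in non-KO morulae from the same parents (adjusted p = 0.0227, edgeR quasi-likelihood test with Benjamini-Hochberg adjustment). The KO label was read from these same libraries, so this difference is not an independent check of it. Gabpb1 itself was at 163 CPM where the label is Gabpb1 KO and 88.5 CPM in the non-KO morulae (edgeR adjusted p = 0.243), so its count does not check that label. CPM (counts scaled to a common total of gene counts) include the TMM factor of each embryo. Trophectoderm markers (7 genes, 7 detected in each group) summed to 333 to 3991 CPM in the 10 morulae and 3937 to 6594 CPM in the 9 blastocysts. Krt8 and Krt18 gave most of this sum in the Alyref cross. They averaged 1809 and 3238 CPM in its blastocysts and 363 and 466 CPM in its non-KO morulae. Cumulus cell markers summed to at most 0.608 CPM in any embryo, with Fshr at 0 in all of them, and oocyte markers to at most 14.7 CPM. In whole embryos, fewer cells of a type and less RNA per cell cannot be told apart.

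All 10 genes are protein coding, and 9 reached the level for testing (FPKM, that is CPM per kilobase of merged exon, of 1 or more in at least 2 embryos). In mm10, Ccne1 lies at chr7:38097984-38107534, Ccna2 at chr3:36564865-36572150, Ccnb1 at chr13:100778650-100786570, Ccnb2 at chr9:70407692-70421547, Cdk1 at chr10:69335146-69352938 and Cdk2 at chr10:128697939-128705031, and counts cover all exons of a gene. Ccnd2, a D-type cyclin, did not reach that level, with at most 0.407 FPKM in any embryo and 0 counts in 2 blastocysts. Per length, Ccnb1 had the highest mean of the 10 genes in all 4 morula groups, from 209 to 315 FPKM, and Ccnb2 had the highest mean in all 3 blastocyst groups, from 219 to 245 FPKM. In the Alyref KO morulae the order was Ccnb1 (275 FPKM), Ccne1 (101), Ccna2 (97.3), Cdk1 (88.8), Ccnb2 (76.0) and Ccnd3 (32.2), and the 2 embryos' range for Ccne1 overlapped those of Ccna2 and Cdk1. In the WT blastocysts it was Ccnb2 (230 FPKM), Ccnb1 (142), Cdk1 (73.8), Ccna2 (52.6), Ccne1 (18.5), Ccnd3 (16.0) and Cdk2 (15.7), with overlap between Cdk1 and Ccna2 and between each neighbour from Ccne1 to Cdk2. Ccnd1 and Ccnd2 were last in every group, and only Ccnd1 reached a group mean above 1 FPKM, with a highest group mean of 2.65 FPKM in the Gabpb1 KO morulae.

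**Figure D1:**
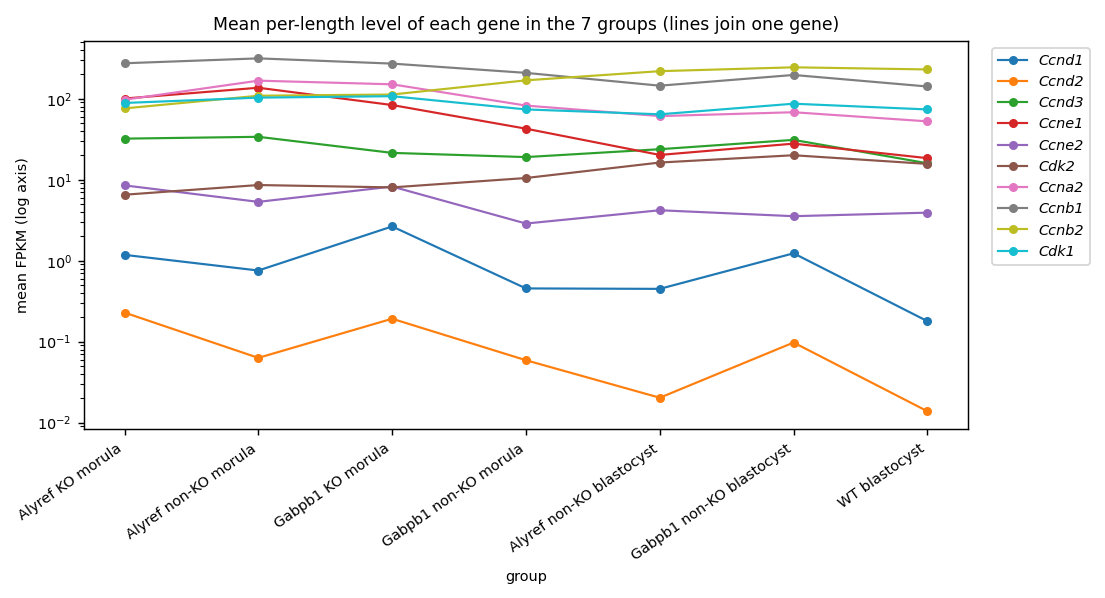
Mean FPKM (log axis) of each of the 10 genes in the 7 groups, with a line joining the means of 1 gene for the eye; the groups have no order along the axis. Ccnb1 is the top line in the 4 morula groups and Ccnb2 in the 3 blastocyst groups, while Ccnd1 and Ccnd2 lie at the bottom.

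Among the D-type cyclins, Ccnd3 gave 86.7 to 99.6% of the summed FPKM of the 3 D-type cyclins in every embryo. Its level was 351 and 214 CPM in the Alyref KO morulae, 217, 331 and 345 CPM in the Alyref non-KO morulae, 63.5, 261 and 240.5 CPM in the Gabpb1 KO morulae and 183 and 152 CPM in the Gabpb1 non-KO morulae. In blastocysts it was 168, 236 and 223 CPM (Alyref cross), 234, 195 and 389 CPM (Gabpb1 cross) and 109, 133 and 179 CPM (WT). These ranges overlap widely: 9 of 10 morulae lay within the range of the blastocysts, and the first Gabpb1 KO morula was the lowest embryo of all. Ccnd3 shares 361 exon bases with Bysl on the other strand, and no strand setting is given for the counting. Ccnd1, which many growth signals induce, ranged from 0.0844 CPM, which is 1 count, in the second Alyref non-KO morula to 21.1 CPM, or 228 counts, in the second Gabpb1 KO morula. At these counts, and with 1100 exon bases shared with LTO1 on the other strand (115 to 609 counts per embryo), reads of Ccnd1 and LTO1 cannot be told apart in the shared part. Of the partner kinases, named here after their values were seen, Cdk4 was at 205 to 425 CPM in the 19 embryos, and Cdk6 was at 0.556 to 14.9 CPM.

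Of the E-type cyclins, Ccne1, which with Cdk2 starts DNA replication, had the clearest separation by stage among the 10 genes. It was at 298 and 238 CPM in the Alyref KO morulae, 373, 629 and 90.8 CPM in the Alyref non-KO morulae, 90.7, 342 and 236 CPM in the Gabpb1 KO morulae and 116 and 111 CPM in the Gabpb1 non-KO morulae. In blastocysts it was 60.7, 37.3 and 63.7 CPM (Alyref cross), 47.1, 88.7 and 87.1 CPM (Gabpb1 cross) and 35.7, 74.9 and 36.9 CPM (WT). All 9 blastocysts therefore lay below all 10 morulae, although the gap between the highest blastocyst and the lowest morula was small. Ccne2, the second E-type cyclin, was lower per length than Ccne1 in every embryo, so that Ccne1 gave 74.2 to 97.6% of the summed FPKM of both. Ccne2 reached 38.9 CPM in the first Alyref KO morula and was lowest, at 6.54 CPM, in the second Gabpb1 non-KO morula.

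Cdk2, the kinase partner of the E-type cyclins, was higher in most blastocysts. It was at 49.8 and 31.5 CPM in the Alyref KO morulae, 36.0, 66.9 and 57.6 CPM in the Alyref non-KO morulae, 51.3, 33.1 and 65.6 CPM in the Gabpb1 KO morulae and 82.2 and 48.5 CPM in the Gabpb1 non-KO morulae. In blastocysts it was 95.8, 123 and 85.2 CPM (Alyref cross), 107, 91.4 and 176 CPM (Gabpb1 cross) and 74.7, 113 and 105 CPM (WT). Of the 9 blastocysts, 8 lay above the highest morula. Within an embryo, the ratio of Ccne1 to Cdk2 in FPKM was 0.707 to 2.27 in the 9 blastocysts. It was 3.31 to 24.2 in the 5 non-KO morulae and 4.13 to 24.1 in the 5 KO morulae. The lack of overlap between stages in this ratio largely restates the separations of Ccne1 and Cdk2 and is no further support for them.

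Ccna2, which acts in S phase and at the entry into mitosis, was at 391 and 403 CPM in the Alyref KO morulae, 738, 1010.0 and 302 CPM in the Alyref non-KO morulae, 271, 788 and 789 CPM in the Gabpb1 KO morulae and 353 and 320.2 CPM in the Gabpb1 non-KO morulae. In blastocysts it was 297, 233 and 220 CPM (Alyref cross), 242, 238 and 355 CPM (Gabpb1 cross) and 162, 230.4 and 252 CPM (WT). High values, above 700 CPM, occurred in 4 morulae of 2 groups, and 7 of the 9 blastocysts lay below the lowest morula. Cdk1, the kinase of mitosis, showed no separation by stage, with group means from 317 to 531 CPM.

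Ccnb1 and Ccnb2, the cyclins of mitosis, did not follow each other. Ccnb1 was at 1193 and 1122 CPM in the Alyref KO morulae, 986, 2338 and 666 CPM in the Alyref non-KO morulae, 643, 1375 and 1421 CPM in the Gabpb1 KO morulae, 1251 and 511 CPM in the Gabpb1 non-KO morulae and 515 to 1119 CPM in the 9 blastocysts. Ccnb2 was at 128 and 105 CPM in the Alyref KO morulae, 182, 144 and 175 CPM in the Alyref non-KO morulae, 196, 160.1 and 162 CPM in the Gabpb1 KO morulae and 350.4 and 167 CPM in the Gabpb1 non-KO morulae. Its blastocyst values were 385, 333 and 289 CPM (Alyref cross), 381, 365 and 378 CPM (Gabpb1 cross) and 303, 357 and 398 CPM (WT), so that 6 of 9 blastocysts lay above the highest morula. The first Gabpb1 non-KO morula was the only morula within the blastocyst range of Ccnb2. The ratio of Ccnb2 to Ccnb1 in FPKM was 0.169 to 0.899 in the non-KO morulae, 0.258 to 0.841 in the KO morulae and 0.897 to 1.91 in the blastocysts. Its size depends on the merged exon lengths, 4217 bases over 7 transcripts for Ccnb1 and 1531 bases for the single transcript of Ccnb2, but the comparison of this ratio between embryos does not. Reads assigned to the pseudogene copies of Ccnb1, described below, are not in this ratio.

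**Figure D2:**
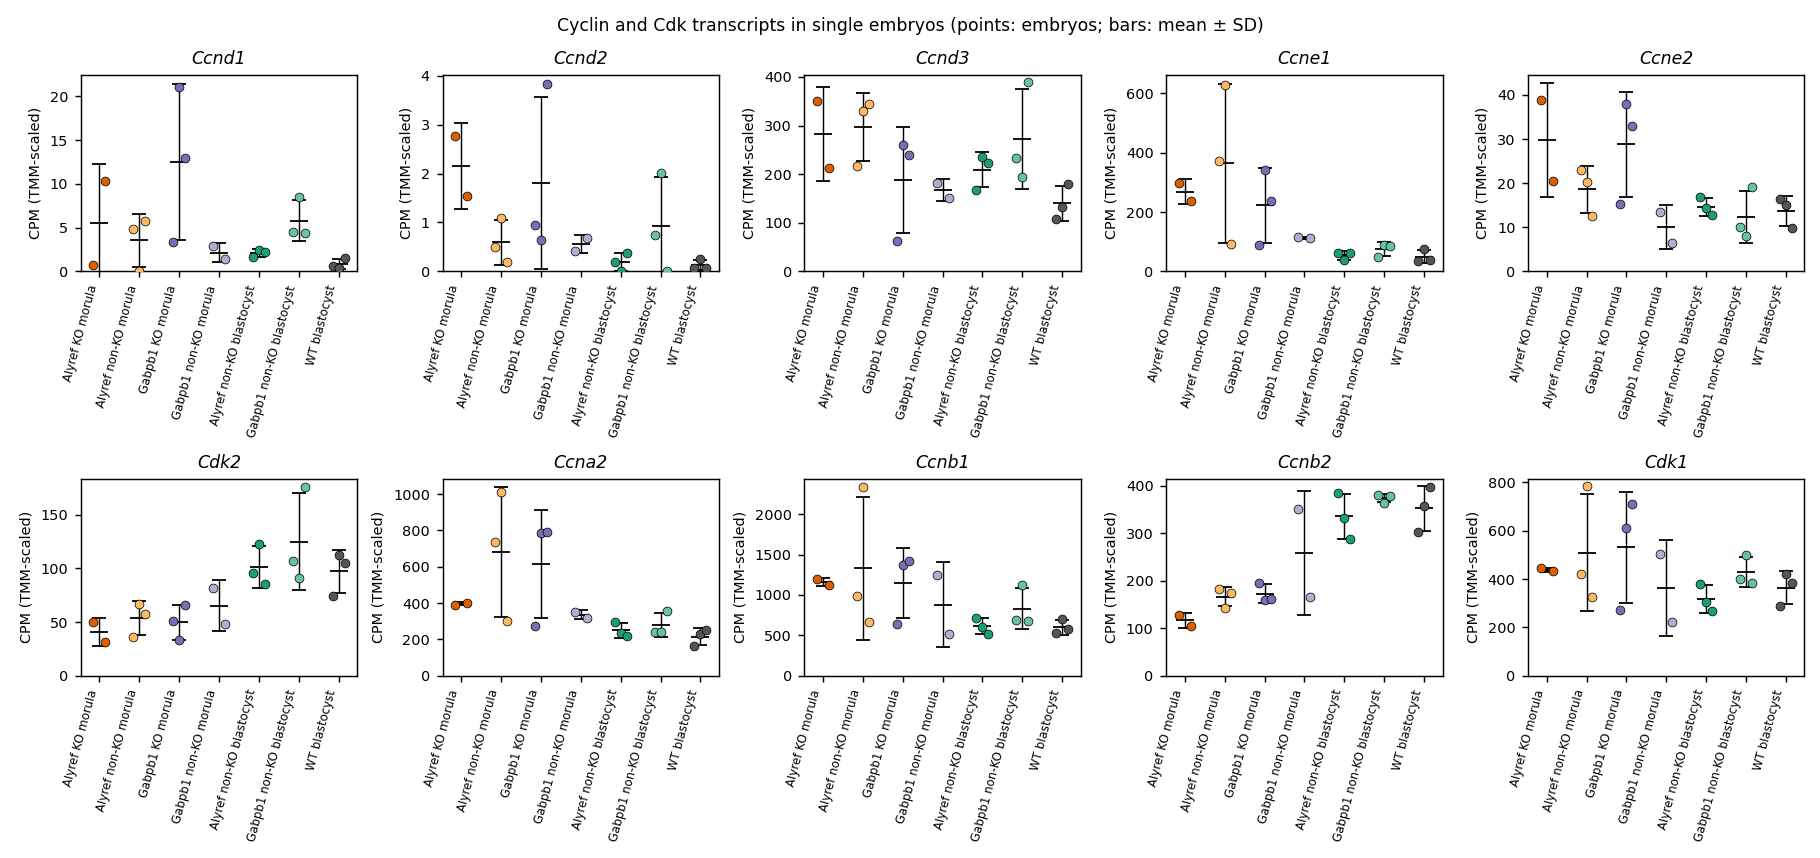
CPM of each gene in the 19 embryos (points, coloured by group), with the group mean and SD as bars; each axis starts at 0 and has its own scale. Ccne1 is lower in all 9 blastocysts than in all 10 morulae, and Ccnb2 and Cdk2 are higher in most blastocysts. The share of all genes separated in this way was not counted. Under ERCC scaling the direction of Ccnb2 and Cdk2 turns in the Gabpb1 cross (-0.36 and -0.030 on the log2 scale). Ccnd1 and Ccnd2 reach at most 21.1 and 3.83 CPM.

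**Figure D3:**
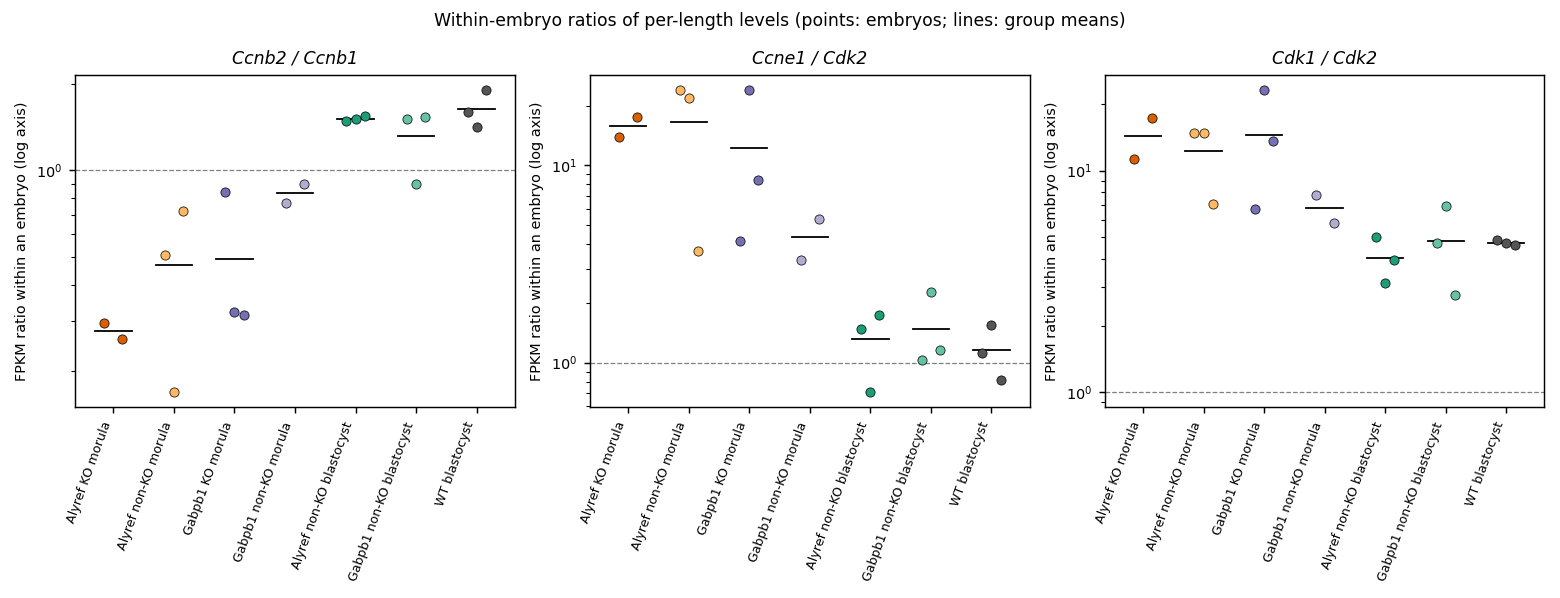
Ratios of FPKM between 2 genes within each embryo (points; log axis), with group means as short lines and a dashed line at 1. For Ccne1 over Cdk2 the blastocysts (0.707 to 2.27) lie below all morulae, which largely restates the separation of each gene. For Ccnb2 over Ccnb1, 8 of 9 blastocysts lie above all morulae.

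Ccnb1 has near-identical copies in the table, between which the counting could split reads. The processed pseudogenes Ccnb1-ps (99.2% identical over 1287 bases), Gm12856 (98.1%), Gm8416 (97.3%) and Gm4870 (94.4%) hold 22.5 to 33.8% of the reads summed over Ccnb1 and these 4, with a median of 27.2%. The share was 27.1 to 33.8% in the morulae and 22.5 to 27.2% in the blastocysts. It was 33.8 and 33.3% in the 2 Alyref KO morulae, above the other 17 embryos, whose highest was 30.5%. Adding these reads to Ccnb1 changed none of its 8 calls, with a log2 difference of -1.18 in place of -1.12 between stages in the Alyref cross. Ccnd3-ps added 1.60 to 3.0% of the sum to Ccnd3 in the same way. How the authors assigned reads that match several places is not given in the sources used here.

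**Figure D4:**
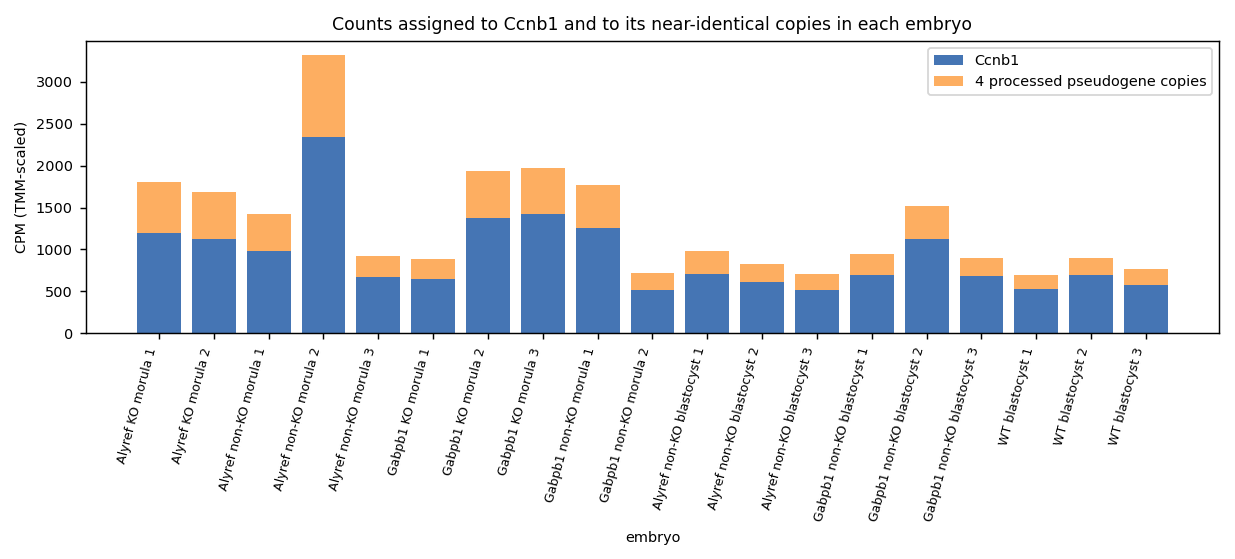
CPM assigned to Ccnb1 (blue) and to its 4 processed pseudogene copies (orange) in each of the 19 embryos, stacked from 0. The copies make up 22.5 to 33.8% of the sum.

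The stage comparison asks how the transcripts differ between embryos that had reached different stages at the same hour. Ccne1 and Ccna2 fell and Ccnb2 rose between non-KO morulae and non-KO blastocysts of the Alyref cross. Ccne1 was 6.76-fold lower in blastocysts (log2 difference -2.76, SE 0.59, adjusted p = 0.0121, edgeR quasi-likelihood test over 18410 genes with Benjamini-Hochberg adjustment). Ccna2 fell by 1.45 on the log2 scale (SE 0.40, adjusted p = 0.0304 by the same edgeR test), and Ccnb2 rose by 1.01 (SE 0.23, adjusted p = 0.0141 by the same edgeR test). In all 3 genes the 3 blastocysts and the 3 morulae did not overlap. These are 3 of 9 tested genes, against 13.0% of all genes tested; 1 of the 9 rose, against 5.62%, and 2 fell, against 7.43%. With Cdk2 added, 4 of the 9 had groups without overlap, against 38.9% of all genes, and 5 had an unadjusted p under 0.05, against 31.1%. Cdk2 was at 101 against 53.5 CPM (log2 difference 0.92, edgeR adjusted p = 0.0761) and Ccnb1 at 612 against 1330.2 CPM (-1.12, edgeR adjusted p = 0.0889), and neither passed. DESeq2 called 5 of the 9, these 2 added (adjusted p = 0.0405 for Cdk2 and 0.0443 for Ccnb1), and 3762 of all genes. Cdk1 (-0.68), Ccnd1 (-0.77), Ccnd3 (-0.51) and Ccne2 (-0.34) had intervals that included 0. The median log2 difference of the 9 genes was -0.68, against -0.04 over all genes tested.

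Each of the 3 calls depended on single embryos. Without the second morula, or the first or the second blastocyst, of this group pair no cyclin or Cdk gene was called, with log2 differences of Ccne1 between -2.85 and -2.07. Ccna2 was also not called without the first morula or the third blastocyst, and a fit of these 6 embryos alone called none of the 3 (Ccne1 -2.71, edgeR adjusted p = 0.0689). Without the third morula, 4 were called, Ccnb1 (-1.44, edgeR adjusted p = 0.0215) among them, while the calls over all genes went from 2402 to 4560. ERCC scaling left Ccne1 called (log2 difference -2.66, edgeR adjusted p = 0.0139) and Ccna2 and Ccnb2 not (-1.51 and 0.64). In the third morula Ccne1 (90.8 CPM) and Ccna2 (302 CPM) were lowest of the group, and its trophectoderm markers summed to 1854 CPM, against 595 and 595 CPM in the others and 4050.0 to 6594 CPM in the blastocysts. Most of that sum was Krt8 and Krt18 in this group pair. Over all 10 morulae the correlation of log2 values with that sum was -0.82 for Ccne1, -0.78 for Ccna2, 0.62 for Ccnb2 and 0.64 for Cdk2, as a description of embryos that share library preparation. Over the 9 blastocysts it was -0.018 for Ccne1, 0.55 for Ccna2, 0.55 for Ccnb2 and 0.43 for Cdk2. Ccna2 thus had opposite signs in the 2 stages. So did Ccne2 (-0.65 in morulae and 0.37 in blastocysts), Cdk1 (-0.57 and 0.21), Ccnb1 (-0.55 and 0.064) and Ccnd3 (-0.44 and 0.080). Ccnd1 (-0.39 and -0.23) and Ccnd2 (-0.18 and -0.40) kept their sign, as did Ccne1, Ccnb2 and Cdk2. Among inner cell mass markers Nanog fell by 1.95 and Pou5f1 by 0.80 on the log2 scale in the same comparison, and among trophectoderm markers Krt8 (2.32) and Krt18 (2.80) rose and Tfap2c (-1.19) fell. The oocyte marker Zp3, the only one of 6 listed that was tested, fell by 3.41 (edgeR adjusted p = 0.0163). The part of cell content in the stage difference was not tested. Ccna2 shares 510 of its 4083 exon bases with Exosc9 on the other strand, and Exosc9 differed by -0.58 (edgeR adjusted p = 0.153) in this comparison.

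Between non-KO morulae and non-KO blastocysts of the Gabpb1 cross no cyclin or Cdk gene was called (0 of 9, against 0.0% of all genes in edgeR), 1 had an unadjusted p under 0.05, against 6.72%, and DESeq2 called 0 of the 9 and 57 of all genes. The gene with that p was Cdk2, at 125 against 65.3 CPM (log2 difference 0.93, 95% interval 0.12 to 1.74). Ccne1 was at 74.3 against 114 CPM (-0.62, interval -1.91 to 0.68) and Ccnb2 at 375 against 259 CPM (0.53, interval -0.01 to 1.07), a difference of 0.095 without the second morula and 1.17 without the first. In 5 of the 9 genes the groups did not overlap (Ccne1 lower, and Ccnb2, Cdk2, Ccnd3 and Ccnd1 higher in blastocysts), against 23.1% of all genes. With ERCC scaling the median of all genes shifted to -0.86 here, and Ccnb2 (-0.36), Cdk2 (-0.030) and Ccnd3 (-0.26) had the opposite sign. The 2 morulae of this cross had trophectoderm sums of 3991 and 2492 CPM, the highest of the morulae.

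Whether the stage difference itself differs between the crosses was tested as an interaction. No cyclin or Cdk gene passed (0 of 9, against 0.00543% of all genes in edgeR). In this test 1 had an unadjusted p under 0.05, against 13.8%, and DESeq2 called 0. Ccne1 came nearest, at 2.14 (SE 0.85, edgeR adjusted p = 0.303), and without the third Alyref non-KO morula it passed at 2.60 (edgeR adjusted p = 0.0484), in a fit that called 702 of all genes. Without the second of these morulae it was 1.44 (edgeR adjusted p = 0.593). Averaged over both crosses, an alternative added after the data had been seen, Ccne1 fell by 1.69 (edgeR adjusted p = 0.0361) and Ccnb2 rose by 0.77 (edgeR adjusted p = 0.0267). In that average Cdk2 was at 0.93 (edgeR adjusted p = 0.0504) and Ccna2 at -0.86 (edgeR adjusted p = 0.0899), and neither passed.

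**Figure D5:**
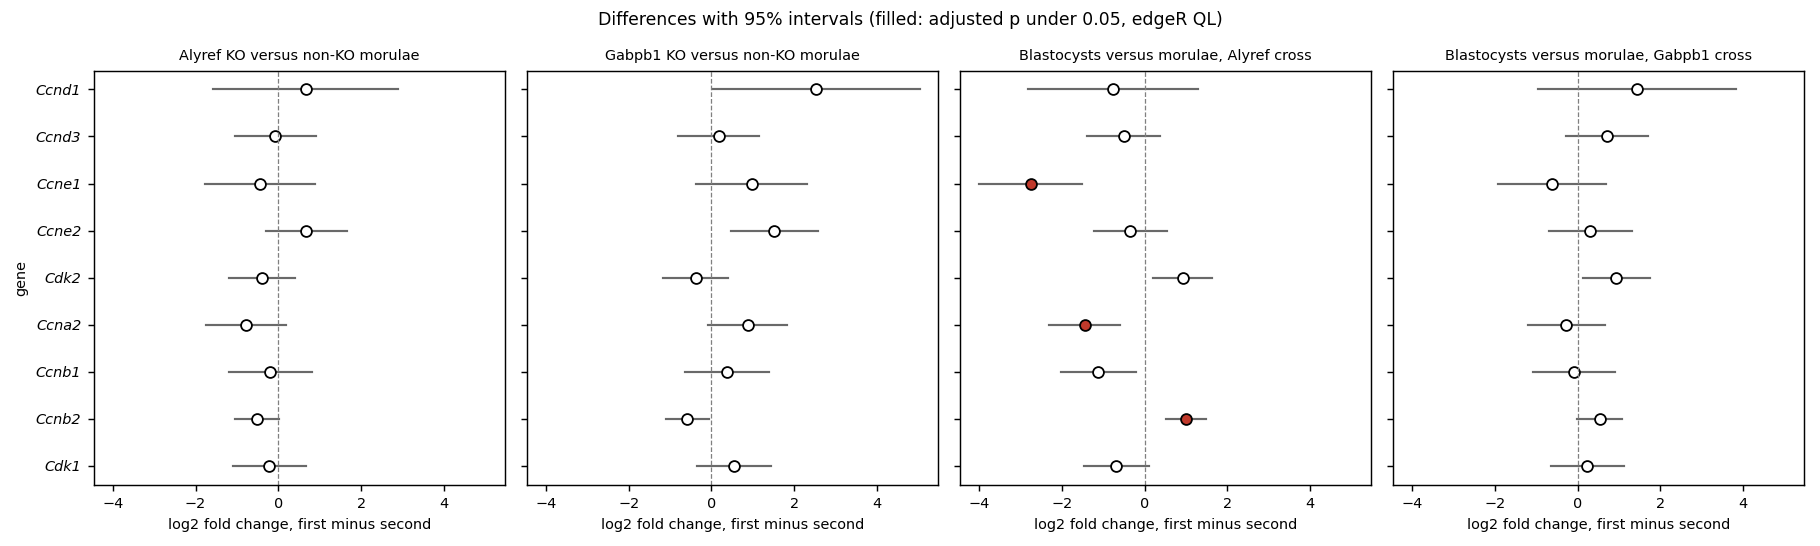
Log2 differences of the 9 tested genes (points) with 95% intervals (lines) in the 2 KO and the 2 stage comparisons; filled points have an adjusted p under 0.05 in edgeR's quasi-likelihood test. The filled points are Ccne1, Ccna2 and Ccnb2 in the Alyref cross stage comparison, and Ccnd1 has the widest intervals.

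None of the 9 tested genes differed between Alyref KO and non-KO morulae by the test (0 called, against 0.228% of all genes in edgeR). An unadjusted p under 0.05 was reached by 0 of the 9, against 12.1%, and DESeq2 called 0. Ccnb2 was the only one whose groups did not overlap, against 24.9% of all genes, at 116 against 167 CPM (log2 difference -0.52, interval -1.06 to 0.02, edgeR adjusted p = 0.437). For Cdk1 the interval ran from -1.10 to 0.67, for Ccnb1 from -1.21 to 0.81, for Ccna2 from -1.74 to 0.18 and for Ccne1 from -1.76 to 0.88, so that they hold falls of more than 1 on the log2 scale in all 4 genes. The KO embryos lay close together in Ccna2 (391 and 403 CPM), Ccnb1 (1193 and 1122 CPM) and Cdk1 (444 and 432 CPM), between the lowest and the highest non-KO embryo. The median log2 difference of the 9 genes was -0.22, against -0.04 over all genes tested.

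None of the 9 genes was called between morulae labelled Gabpb1 KO and non-KO morulae (0, against 1.65% of all genes in edgeR), 3 had an unadjusted p under 0.05, against 18.9%, and DESeq2 called 1, Ccne2. Ccne2 was at 15.4, 38.1 and 33.0 CPM in the KO embryos and 13.6 and 6.54 CPM in the others. Every KO value lay above both non-KO values, and the log2 difference was 1.52 (SE 0.49, edgeR adjusted p = 0.121; DESeq2 adjusted p = 0.0316). Leaving out 1 embryo gave 1.08 (without the second non-KO morula) to 2.14 (without the first), and the call was gained without the first KO morula alone (1.82, edgeR adjusted p = 0.0440), in a fit that called 966 of all genes, against 303. Ccne2 shares 609 of its 3495 exon bases with Ints8 on the other strand, which differed by -0.36 (edgeR adjusted p = 0.584) in this comparison.

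Ccnd1 was at 3.35, 21.1 and 13.0 CPM in the morulae labelled Gabpb1 KO and 2.91 and 1.37 CPM in the others (log2 difference 2.53, SE 1.17, edgeR adjusted p = 0.258). These 2 genes, Ccne2 and Ccnd1, had groups without overlap, against 32.2% of all genes. Ccnb2 was at 173 against 259 CPM (-0.58, SE 0.25, edgeR adjusted p = 0.222), with overlap. Ccna2 differed by 0.87 (interval -0.09 to 1.84) and Ccne1 by 0.97 (interval -0.38 to 2.32), and in both the first KO morula (271 and 90.7 CPM) lay below the non-KO embryos while the other 2 lay above them. That embryo had a trophectoderm sum of 2464 CPM, against 333 and 1007 CPM in the other KO embryos. Its part in these values was not tested. The median log2 difference of the 9 genes was 0.54, against 0.06 over all genes tested.

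The 2 KO effects were set against each other in a further test. No gene of the 9 passed (0, against 0.907% of all genes in edgeR). Of the 9, 1 had an unadjusted p under 0.05, against 16.9%, and DESeq2 called 0. Ccna2 had the smallest p, with a difference between the effects of 1.65 (SE 0.64, edgeR adjusted p = 0.210). For Cdk2 the difference was 0.01 (interval -1.11 to 1.13) and for Ccnb2 -0.06 (interval -0.81 to 0.69).

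The non-KO morulae of both crosses serve as a background for these comparisons. No cyclin or Cdk gene was called between them (0 of 9, against 1.85% of all genes in edgeR). Of the 9, 3 had an unadjusted p under 0.05, against 22.4%, and DESeq2 called 0. The 3 were Ccne1 (log2 difference -1.68, Gabpb1 cross minus Alyref cross), Ccna2 (-1.02) and Ccnb2 (0.63), the genes called between stages in the Alyref cross, whose test shares the Alyref non-KO morulae with this one. Without the third Alyref non-KO morula, Ccna2 (-1.37, edgeR adjusted p = 0.0361) and Ccne1 (-2.14, edgeR adjusted p = 0.0210) passed, in a fit that called 2435 of all genes, against 341. Without the second they were at -0.62 and -1.02. Ccnb2 was at 0.0016 without the first Gabpb1 non-KO morula and 1.07 without the second. Of the cell markers, all 5 inner cell mass markers were lower in the Gabpb1 cross (median -0.99, with Nanog called at -1.38, edgeR adjusted p = 0.0334), and 6 of 7 trophectoderm markers were higher (median 1.05), none of them called. Their part was not tested. Only Ccnd3 had groups without overlap (167 against 297 CPM), against 36.1% of all genes. Bysl, which overlaps it on the other strand, was called lower in the same comparison (-1.13, edgeR adjusted p = 0.0361), and reads of the shared bases cannot be told apart.

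Blastocysts of heterozygous crosses and WT blastocysts gave 0 calls among the 9 genes (against 0.0% of all genes in edgeR). Of the 9, 1 had an unadjusted p under 0.05, against 4.55%, and DESeq2 called 0. Ccnd1 was the gene with that p, at 1.65, 2.42 and 2.28 CPM (Alyref cross) and 4.53, 8.53 and 4.38 CPM (Gabpb1 cross) against 0.602, 0.448 and 1.48 CPM in the WT embryos (log2 difference 2.04, SE 0.94, edgeR adjusted p = 1). Its groups did not overlap, as for 3.78% of all genes. Ccnd3 differed by 0.77 (interval -0.01 to 1.55), and Ccnb2, at 355 against 353 CPM, by 0.01 (interval -0.40 to 0.42).

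Values spread less among blastocysts than among morulae in 8 of the 10 genes. The coefficient of variation over the 9 blastocysts and the 10 morulae was 10.7 and 37.6% for Ccnb2, 19.7 and 38.8% for Cdk1, 21.5 and 49.6% for Ccna2 and 35.8 and 67.0% for Ccne1. Ccnd3 had 39.0 and 38.8%, and Ccnd2, with few counts, 156 and 92.3%. These figures pool groups, with KO embryos among the morulae only, and the difference in spread was not tested. The share of all genes with less spread among blastocysts was not counted, so the count is not a trait of these genes. Over the 19 embryos Ccnb1 and Cdk1 had a correlation of log2(CPM + 1) of 0.92, and 0.96 for deviations from the group means. For Ccna2 and Ccne1 these were 0.91 and 0.86, and for Ccnb2 and Cdk2 0.85 and 0.39, so the last pair shared mainly its difference between groups. Ccnb2 and Ccne1 had -0.79 and -0.21. These are descriptions over embryos that share depth and stage.

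Among 8360 genes with a mean of 5 FPKM or more, the ones most like each cyclin or Cdk gene in log2(CPM + 1) over the 19 embryos included copies of the gene itself. They were CT030653.1 (Pearson r 0.987) and the copy Gm4870 (0.984) for Ccnb1, and Ccnd3-ps (0.985) and Psme3 (0.830) for Ccnd3. For Ccna2 they were Hdac1 (0.964) and Pno1 (0.952), for Ccne1 Impdh2-ps (0.958) and Zscan5b (0.958), and for Ccne2 Nbn (0.862) and Eif4g2 (0.831). Ccnb2 was nearest to Ttc9c (0.942) and Mtch1 (0.936), Cdk1 to Gm10184 (0.956) and Gm10259 (0.954), and Cdk2 to Abhd17c (0.937) and Cmtm7 (0.916). For the low genes Ccnd1 and Ccnd2 they were Gm4895 (0.839) and Ube2q2 (0.837), and Jmjd6 (0.853) and 1700018B24Rik (0.812).

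Other genes of the cell cycle were read from 6 lists. Of 15 tested other cyclins, Cdks and their partners, 1 was called between stages in the Alyref cross, where Cks2, a small subunit of the Cdk complex, fell from 721, 1436 and 433 CPM in the morulae to 338, 273 and 343 CPM in the blastocysts (log2 difference -1.44, edgeR adjusted p = 0.0242). Of 5 tested Cdk inhibitors, Cdkn2c (1.67, edgeR adjusted p = 0.0251) and Cdkn2d (0.98, edgeR adjusted p = 0.0289), which bind Cdk4 and Cdk6, rose there. Cdc25b, a phosphatase that activates Cdks, rose as 1 of the 6 genes of the phosphorylation switch (9.34 against 2.11 CPM, log2 difference 2.13, edgeR adjusted p = 0.0316). E2f6, a repressor, was called among 10 tested genes of Rb and E2F (-1.24, edgeR adjusted p = 0.0402), and Anapc7, a subunit of the anaphase-promoting complex that marks B-type cyclins for destruction, was called among 18 tested genes of cyclin destruction (-1.12, edgeR adjusted p = 0.0359). None of 10 mitotic kinases and checkpoint genes was called there. These 6 calls are among 64 genes tested, a smaller share than the 13.0% of all genes called in this comparison. They are therefore not a result about the lists.

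In the Gabpb1 KO comparison Anapc4, another subunit of that complex, fell. It is the single gene called of 64 tested on the 6 lists, beside 1.65% of all genes, so the lists stand near the background. It was at 39.4, 24.8 and 46.1 CPM in the KO embryos and 86.2 and 146 CPM in the non-KO embryos, with no overlap (log2 difference -1.66, edgeR adjusted p = 0.00804). No gene on the lists was called in the Alyref KO comparison. Cdkn1a, a gene for a Cdk inhibitor, was picked after its values were seen. It was at 541 and 610.2 CPM in the Alyref KO morulae and 185, 329 and 132 CPM in the Alyref non-KO morulae, without passing the test. In the blastocysts it was at 7.40 to 238 CPM. For Alyref KO, all 5 tested Cdk inhibitors had log2 differences above 0 (0.098 to 1.57). Of these, 2 had groups without overlap, against 24.9% of all genes. All 5, Cdkn1a among them, were also higher in Gabpb1 cross than in Alyref cross non-KO morulae (0.43 to 2.20). There 4 had no overlap, against 36.1% of all genes. Comparing non-KO morulae by cross, Rb1 was higher (3.54, edgeR adjusted p = 0.0498) and Nek2 lower (-1.87, edgeR adjusted p = 0.0478) in the Gabpb1 cross. They are the only genes called there of the 64 tested on the 6 lists, beside 1.85% of all genes, and both lie just under the threshold. In this comparison ERCC scaling called 2 of all genes and the compared groups alone 0.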

How the data were processed

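PolyA RNA of 19 single embryos was sequenced as paired reads after library preparation with a kit that does not mark strand, per the labels' protocols. The deposited table holds whole-number counts per gene made by the authors, although it is named for FPKM. The submitters' processing notes list mm10, Trimmomatic, Trim Galore, cutadapt, STAR and featureCounts, without versions or roles. Strand and multimapping settings are not given in the sources used here. Of the 53379 genes, 39262 had any count, and 18410 with FPKM of 1 or more in at least 2 embryos were tested. The 92 ERCC features were kept out of library sizes and tests. Differences came from edgeR 4.0.16 (R 4.3.3), with TMM scaling, a mean for each of the 7 groups, the quasi-likelihood F test and Benjamini-Hochberg adjustment over all tested genes, with a threshold of 0.05. SE and 95% intervals came from the F statistic. CPM are counts per gene total after TMM scaling, and FPKM divide these counts by merged exon length. The code was tested on simulated data. Correlations used log2(CPM + 1) and are descriptions.

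The 10 genes and the pathway lists were chosen with earlier results of these data known. The text names all 10, pathway and marker genes called in a comparison, and the 2 genes most like each of the 10. Alternatives were DESeq2 1.42.0, ERCC scaling, no filter, a filter of 5 embryos (15955 genes), a fit of the compared groups only, a replicate block and leaving out each embryo. Averaging the stage difference over crosses and adding pseudogene reads were added after the data had been seen. Counts in single embryos from amplified libraries are not independent molecules, so their number limits precision only in part. The labels do not say whether embryos of a group came from separate fertilisations.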

Additional observations from a re-analysis of the deposited data

How the results depend on the processing

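Of 305 values of single genes under alternatives other than leaving out an embryo, 284 kept their direction and side of the threshold, 13 reversed, 5 lost and 3 gained a call. The mean over crosses is not among them. Only Ccna2 entered for the difference of KO effects, Ccne1 for that of stage effects, and Ccnd1 and Ccnd3 against WT blastocysts. Most values were not called in the main fit and stayed so. Of the 3 calls of the main fit, ERCC scaling lost 2 and the compared groups alone lost 3. Neither the filter on low values nor the replicate block changed a call of the 10 genes. Same-numbered embryos had correlations of deviations from -0.128 to 0.148, which show no clear pairing by number. Whether such embryos share an origin was not tested. With the block Ccne1 differed by -2.59 between stages in the Alyref cross. The cause of each change below was not tested.

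In the Alyref cross stage comparison, with 3 of 9 genes called, ERCC scaling gave 1, the compared groups alone 0, DESeq2 5 and leaving out an embryo 0 to 4. The mean over both crosses, which holds embryos of each, gave 2 (Ccne1 and Ccnb2), without Ccna2 of the Alyref cross and against 0 in the Gabpb1 cross. For Gabpb1 KO, DESeq2 gave 1 and leaving out an embryo 0 to 1; for the difference of stage effects it gave 0 to 1, and between non-KO morulae of the crosses 0 to 2.

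ERCC scaling reversed Ccnb1 for Alyref KO (0.13), Cdk1 (-0.19), Ccnb1 (-0.34) and Ccnd3 (-0.71) for Gabpb1 KO, and Ccne2 (-0.69), Ccnb2 (-0.36), Cdk1 (-0.67), Cdk2 (-0.030) and Ccnd3 (-0.26) for stage in the Gabpb1 cross. It also reversed Cdk1 (0.21) and Ccnb1 (0.21) between the crosses. Under it the median of all genes was -0.34 and -0.86 for stage in the Alyref and Gabpb1 crosses, -0.40 for Gabpb1 KO and 0.39 between crosses. In the main fit these medians were -0.04, 0.02, 0.06 and -0.03. The replicate block reversed Ccnd3 for Alyref KO (0.16) and Gabpb1 KO (-0.10). Leaving out an embryo gave ranges through 0 for Alyref KO of Ccnb1 (-0.52 to 0.48), Ccnd1 (-2.19 to 1.52), Ccnd3 (-0.47 to 0.22), Ccne1 (-0.90 to 0.20) and Cdk1 (-0.46 to 0.22). For Gabpb1 KO these were Ccnb1 (-0.13 to 1.16), Ccnb2 (-1.02 to 0.051), Ccnd3 (-0.14 to 0.58) and Cdk2 (-0.72 to 0.046). For stage in the Gabpb1 cross they were Ccnb1 (-0.59 to 0.70), Ccne2 (-0.15 to 0.93) and Cdk1 (-0.24 to 0.94), and between the crosses Ccnb1 (-1.38 to 0.10) and Cdk2 (-0.14 to 0.62).

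Over all genes, calls numbered 2402 for stage in the Alyref cross (1035 higher, 1367 lower), 352 with ERCC scaling (31 higher, 321 lower), 24 with the compared groups alone, 3762 in DESeq2, 803 averaged over crosses and 370 to 4560 without an embryo. For Gabpb1 KO there were 303 (64 higher, 239 lower), 26 with ERCC scaling (0 higher), 0 with the compared groups alone, 1284 in DESeq2 (479 higher, 805 lower) and 48 to 966 without an embryo. For Alyref KO there were 42, 13 without the filter, 0 with ERCC scaling, 8 with the block, 0 with the compared groups alone, 502 in DESeq2 and 0 to 128 without an embryo. Between crosses there were 341 (218 higher, 123 lower), 2 with ERCC scaling, 0 with the compared groups alone, 1709 in DESeq2 (914 higher, 795 lower) and 0 to 2435 without an embryo. The difference of KO effects had 167 calls, 10 with ERCC scaling (0 higher), 0 with the compared groups alone, 894 in DESeq2 and 16 to 707 without an embryo. The difference of stage effects had 1, 8 without the filter, 0 with the block or the compared groups alone, 336 in DESeq2 and 0 to 702 without an embryo. Stage in the Gabpb1 cross had 0, 57 in DESeq2, 803 averaged over crosses and 0 to 6 without an embryo, and WT blastocysts against the others 0, 8 without the filter, 1 with the compared groups alone, 33 in DESeq2 and 0 to 3 without an embryo.

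The groups of 2 and 3 embryos limit every comparison, and counts of Ccnd1 and Ccnd2 are too low for a narrow interval.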
